A study of Mus musculus with 2 samples.

Results

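The interleukin-10 cytokine cluster of mouse chromosome 1 holds the genes Il24, Il20, Il19 and Il10 and, next to them, the kinase gene Mapkapk2. The members examined here are all open-chromatin regions that overlap the GENCODE M21 bodies of these 5 genes or the 20 kb on either side. Regions of both replicates were joined before these stretches were applied. Where a joined region held 2 regions of replicate 1, both were counted, though only 1 need overlap the stretches. Counted so, 39 regions of replicate 1 and 31 of replicate 2 made up 38 joined regions. Of these, 31 were shared, that is, regions of both replicates overlapped by at least 1 bp, among 84380 shared regions on the assembled chromosomes. The measurement was ATAC-seq, per the labels, in which a transposase inserts adapters into accessible DNA. The region names carry the words ASTARR and insert, and no source used here says if ordinary ATAC-seq or a reporter assay's input was sequenced, which would change what a signal means. Open chromatin below means a region called in these libraries. The cells were T-helper 1 (Th1) primary cells of strain C57BL/6NJ, and the labels point to a protocol for differentiating CD4 T cells. No allele or added agent is named, the sex was not collected and the age is unknown. There was 1 group with 2 biological replicates under a single donor identifier. The labels do not say whether these are separate animals, so the spread between them may be technical. With no second condition, the values below are descriptions and no test was run. From left to right along the chromosome, Il24 lies at chr1:130882074-130887454, Il20 at chr1:130906985-130911451, Il19 at chr1:130932656-130940115, Il10 at chr1:131019845-131024974 and Mapkapk2 at chr1:131053700-131097826. Il10 is read from the plus strand and the other 4 from the minus strand.

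Interleukin-10, encoded by Il10, is a cytokine that dampens immune responses, and Th1 cells can secrete it alongside interferon-γ when they are strongly stimulated. Interleukin-19, interleukin-20 and interleukin-24 are related in structure, share receptor chains and act mainly on epithelial cells. They are best known as products of myeloid and epithelial cells. Mapkapk2 encodes MK2, a kinase downstream of p38 that is expressed in most cell types and controls the stability of cytokine messenger RNAs. Transcription of Il10 is known to depend on scattered elements upstream of the gene, inside it and downstream of it.

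Each region carries a signal, the enrichment value that the authors' caller gave it against a reference the sources do not state, and a −log10 q, the caller's measure of confidence. Values are given for replicate 1 first. All coordinates are mm10, and distances run from an annotated gene start to the summit in replicate 1. All 6 Th1 and T cell markers examined had an open promoter, Cd4, Cd3e, Tbx21, Ifng, Il12rb2 and Cxcr3. Of the markers of other cell types, an open promoter was present at 2 of 5 myeloid genes (Cd14 and Spi1, with Lyz2 in replicate 1 only), 1 of 3 keratinocyte genes (Krt1) and 1 of 2 NK cell genes (Klrb1c). Of the B cell genes Pax5 had one and Ms4a1 and Cd79a had none, and Csf1r, Adgre1, Krt5, Krt14, Ncr1 and the CD8 T cell gene Cd8a had none. Over all protein-coding genes the share with an open promoter was 65.9%. Among the Th1 markers the signal ran from 2.29 and 2.33 at Cd4 to 9.06 and 9.71 at Cd3e. Klrb1c (18.3 and 16.1), Pax5 (11.2 and 10.7) and Krt1 (10.9 and 10.9) were above every Th1 marker, and Spi1 (8.73 and 8.49) and Cd14 (8.29 and 8.10) above all but Cd3e. The marker signals therefore did not set the Th1 genes apart from those of other cell types. The part of other cells in the values below was not tested. The file of replicate 1 held 98875 regions with a median signal of 6.03, and that of replicate 2 held 91488 with 6.30.

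The 2 regions with the highest signal lay between the genes. The letters around their summits are shown together with those of the most confidently called region inside Il10 and of the region nearest upstream of it, since these 4 carry the results on distal regions. Each stretch holds the summit of replicate 1 and 100 bp on either side of it, read from the plus strand of the C57BL/6J reference, GRCm38.p6. Capitals mark matches to any of the 15 motifs described further below. The first lies between Il24 and Il20 (chr1:130902565-130902765). The second lies downstream of Il10 (chr1:131038231-131038431). The third lies in intron 4 of Il10 (chr1:131022708-131022908), and the fourth upstream of Il10 (chr1:131010566-131010766).
Between Il24 and Il20: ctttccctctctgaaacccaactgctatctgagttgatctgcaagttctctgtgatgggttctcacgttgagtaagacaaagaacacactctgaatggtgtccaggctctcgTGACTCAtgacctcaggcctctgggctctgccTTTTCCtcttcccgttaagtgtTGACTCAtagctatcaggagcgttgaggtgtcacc
Downstream of Il10: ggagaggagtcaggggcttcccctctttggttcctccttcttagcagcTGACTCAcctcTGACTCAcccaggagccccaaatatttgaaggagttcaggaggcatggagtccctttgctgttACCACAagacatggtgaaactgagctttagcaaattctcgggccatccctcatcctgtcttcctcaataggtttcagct
Intron 4 of Il10: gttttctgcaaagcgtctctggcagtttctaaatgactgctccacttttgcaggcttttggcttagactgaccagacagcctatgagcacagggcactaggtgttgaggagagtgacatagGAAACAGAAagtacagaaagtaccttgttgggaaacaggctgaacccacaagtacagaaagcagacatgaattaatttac
Upstream of Il10: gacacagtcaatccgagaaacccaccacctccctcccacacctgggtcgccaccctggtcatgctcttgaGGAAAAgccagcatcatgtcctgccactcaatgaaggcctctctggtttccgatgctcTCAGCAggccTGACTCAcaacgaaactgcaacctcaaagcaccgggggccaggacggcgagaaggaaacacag

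The RefSeq promoter table, also of build GRCm38.p6, matched 3 of the 5 genes, Mapkapk2, Il19 and Il20, and not Il10 and Il24. The bases before the start are shown because the data bear on these promoters, open at Mapkapk2 and without a region at Il19 and Il20. They are given on the minus strand, along which these genes are read, and without any stretch that GENCODE M21 annotates as an exon. They lie at chr1:131097844-131098093 for Mapkapk2, chr1:130940116-130940365 for Il19 and chr1:130911452-130911546 for Il20. Capitals again mark motif matches.
Mapkapk2: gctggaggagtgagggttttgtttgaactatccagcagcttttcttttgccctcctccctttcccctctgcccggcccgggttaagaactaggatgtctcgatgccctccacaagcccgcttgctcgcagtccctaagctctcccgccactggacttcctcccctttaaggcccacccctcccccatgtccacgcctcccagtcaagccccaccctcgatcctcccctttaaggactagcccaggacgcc
Il19: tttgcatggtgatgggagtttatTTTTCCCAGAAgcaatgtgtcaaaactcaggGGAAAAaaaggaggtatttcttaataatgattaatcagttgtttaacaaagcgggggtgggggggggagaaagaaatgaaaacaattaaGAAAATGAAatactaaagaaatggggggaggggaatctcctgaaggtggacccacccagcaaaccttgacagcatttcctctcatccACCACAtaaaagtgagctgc
Il20: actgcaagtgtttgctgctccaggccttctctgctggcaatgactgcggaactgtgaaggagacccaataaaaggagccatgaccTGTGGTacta

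An open promoter, meaning a shared region within 1 kb of a transcript start, was present at 2 of the 5 genes, Il24 and Mapkapk2. Among all 21938 protein-coding genes the share was 65.9%. Of the 4 interleukin genes, 1 had an open promoter. The promoter region of Il24 (chr1:130886006-130887505) had a signal of 13.8 in replicate 1 and 13.7 in replicate 2. That stood at the 72.2nd and 74.5th percentile among coding genes with an open promoter. The region was 1500 bp wide, overlapped the first exon, and had its summit 0.813 kb inside the gene, in intron 1. The promoter of Il24 was thus open to nearly the same level in both replicates.

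Mapkapk2 had promoter regions at both of its annotated starts. At the outer start (chr1:131095644-131098094) the signal was 7.63 in replicate 1 and 7.03 in replicate 2, the 22nd and 19.4th percentile among open coding promoters. This region was the widest of the cluster at 2451 bp, and its summit lay 0.831 kb inside the gene. The summit with 100 bp on either side held 21 CpG dinucleotides, against a median of 11 over all shared promoter regions. At the inner start, that of a shorter transcript, the region (chr1:131071532-131071903) was weak, with 2.68 and 2.58. In the RefSeq table the 300 bp promoter of Mapkapk2 held 18 CpG, above 70.3% of the 32851 promoters listed. That of Il20 held 4, above 31.4%, and that of Il19 held 1, above 5.43%.

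Il10 had no shared region at its single start. The nearest shared region began 1297 bp inside the gene. A region of replicate 1 only (chr1:131020630-131020955) began 785 bp downstream of the start, in intron 1, with a signal of 1.78 and a −log10 q of 5.18. That signal was above only 0.529% of the promoter regions of its list. Il10 counts as open with replicate 1 alone, or when the distance is raised to 2.5 kb. At Il19 and Il20 neither replicate had any region in the gene body. Measured to its edge and not its summit, the nearest one lay 9068 bp from the closest start of Il19 and 7687 bp from that of Il20. The stretch without a shared region around Il20 was 22.9 kb long, and that around Il19 28.9 kb.

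**Figure D1:**
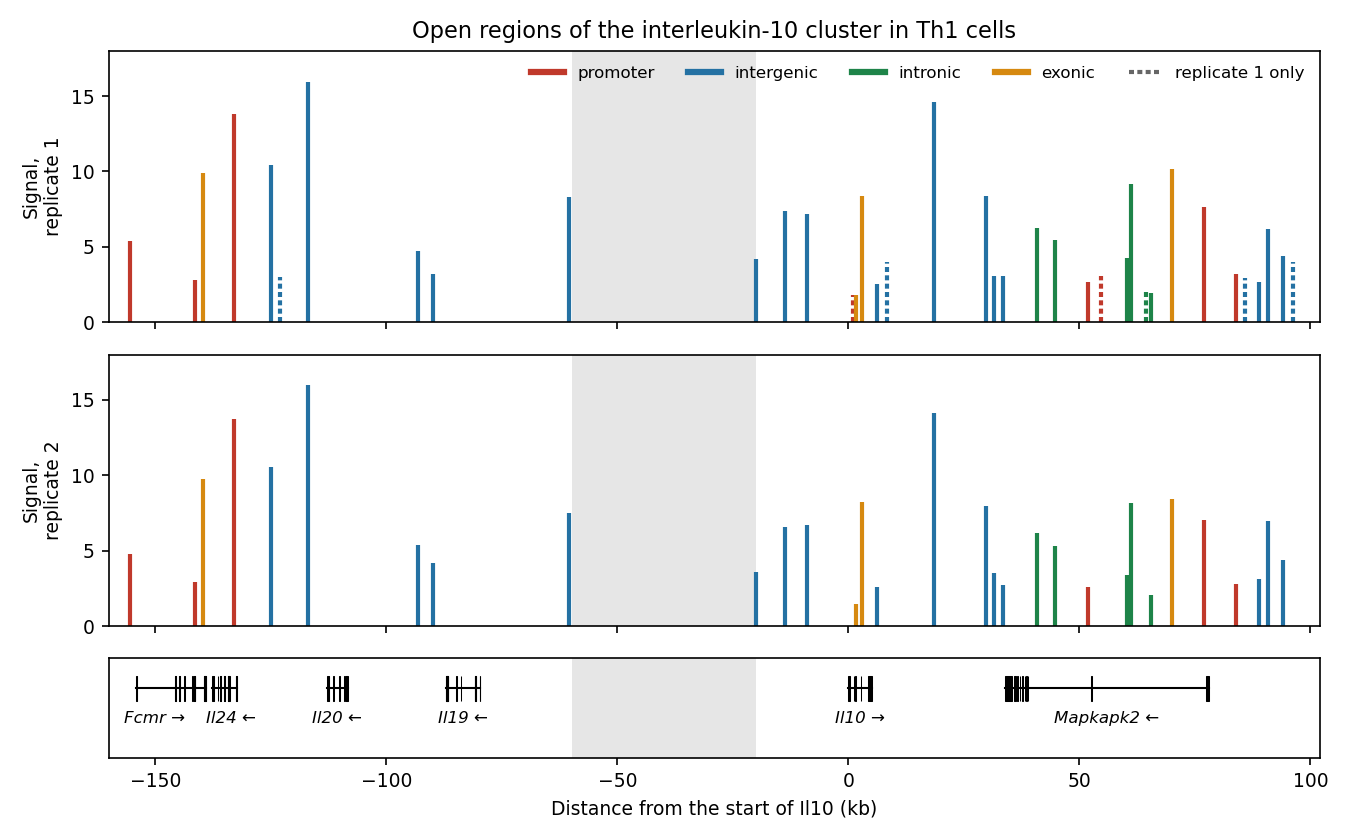
Signal of every region (vertical lines) by distance from the start of Il10 in kb, for replicate 1 (top) and replicate 2 (middle), with the exons of the coding genes below; colours give the place of the region, dotted lines mark regions of replicate 1 only, and the grey band lies outside the windows. The highest lines, at 15.9 and 16.0, stand between Il24 and Il20, and no line stands over Il20 or Il19.

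Distal regions, those farther than 1 kb from every annotated start, made up 25 of the 31 shared regions, or 80.6%, beside 74.5% over all shared regions. They comprised 16 intergenic, 5 intronic and 4 exonic regions. Their signal ran from 1.79 to 15.9 with a median of 6.17 in replicate 1, and from 1.47 to 16.0 with a median of 6.18 in replicate 2. Over all distal shared regions the medians were 6.37 and 6.15. In both replicates 13 of the 25 were above the median of the distal regions of their list and 12 were below it. That median also counts regions that were not shared, and it is the lower reference in replicate 1. Regions with 6.23 and 6.17 in replicate 1 lay above it but below 6.37. The distal regions of the cluster thus lay on both sides of the typical signal in nearly equal number.

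The strongest distal region (chr1:130902205-130903539) was intergenic, with a signal of 15.9 in replicate 1 and 16.0 in replicate 2. Those values lay above 97.4% and 97.9% of the distal regions of their lists. It stood at −15.2 kb from the start of Il24, that is upstream of it, and 8.79 kb downstream of the start of Il20, beyond the end of that gene. It is the first sequence shown above, with the AP-1 letters TGACTCA at positions 113 and 167 and the NFAT letters at 145, counted from 1 at its left end. An intergenic region at −7.31 kb from the start of Il24 (chr1:130894361-130895264) had 10.4 and 10.5. Together with the promoter of Il24, these gave 3 regions with signals above 10 in both replicates at and upstream of its start. On the other side of Il24 lies Fcmr, which encodes a receptor for IgM. A region with its summit in intron 7 of Fcmr overlapped the last exon and had signals of 9.90 and 9.74. Its −log10 q of 430 and 406 was the highest of the cluster's distal regions.

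The window of Il19 held 3 shared regions, the fewest of the 5 windows. The regions 13.5 kb and 10.2 kb downstream of its start, both beyond its end, had 4.71 and 5.38, and 3.18 and 4.15. The region at −19.2 kb from its start (chr1:130959030-130959824) had 8.31 and 7.53. None of these lay in or at the gene.

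Il10 lay in a row of distal regions on both sides. Upstream, regions stood at −20.0 kb (4.18 and 3.57), −13.6 kb (7.41 and 6.58) and −9.18 kb (7.15 and 6.72). The last of these (chr1:131010178-131011420) contains the fourth sequence above, in which AP-1, NFAT and Maf letters were found. No region was found in either replicate between −9.18 kb and the start. The signals of these 3 upstream regions were all lower in replicate 2.

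Inside Il10 the main region (chr1:131021981-131023453) overlapped coding exon 4 and had its summit in intron 4, 2.96 kb from the start and at the same base in both replicates. Its signal was 8.35 in replicate 1 and 8.23 in replicate 2, above 71.9% and 70.2% of distal regions. Its −log10 q of 282 and 236 was above 97.6% and 97.1% of them. A weak region beside it (chr1:131021142-131021694), over exon 3, had 1.79 and 1.47. This was the lowest signal of the cluster's shared regions in each replicate. The body of Il10 thus held a broad, confidently called region near its middle and little at its start.

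Between the end of Il10 and the end of Mapkapk2 lay 5 shared regions. The strongest (chr1:131037970-131038940), 18.5 kb from the start of Il10, had 14.6 in replicate 1 and 14.1 in replicate 2, above 95.2% and 94.6% of distal regions. Its sequence above holds the AP-1 letters at positions 49 and 60 and RUNX letters at 123. A region at 29.6 kb (chr1:131049028-131050173) had 8.38 and 7.94, with a −log10 q of 297 and 237. Regions at 6.25 kb (2.51 and 2.60), 31.6 kb (3.06 and 3.52) and 33.6 kb (3.08 and 2.70) were weaker. A region at 8.29 kb (3.97) was found in replicate 1 only. The region at 18.5 kb lies within 20 kb of both genes and those beyond it within 20 kb of Mapkapk2 only. Position does not say on which gene a region acts.

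**Figure D2:**
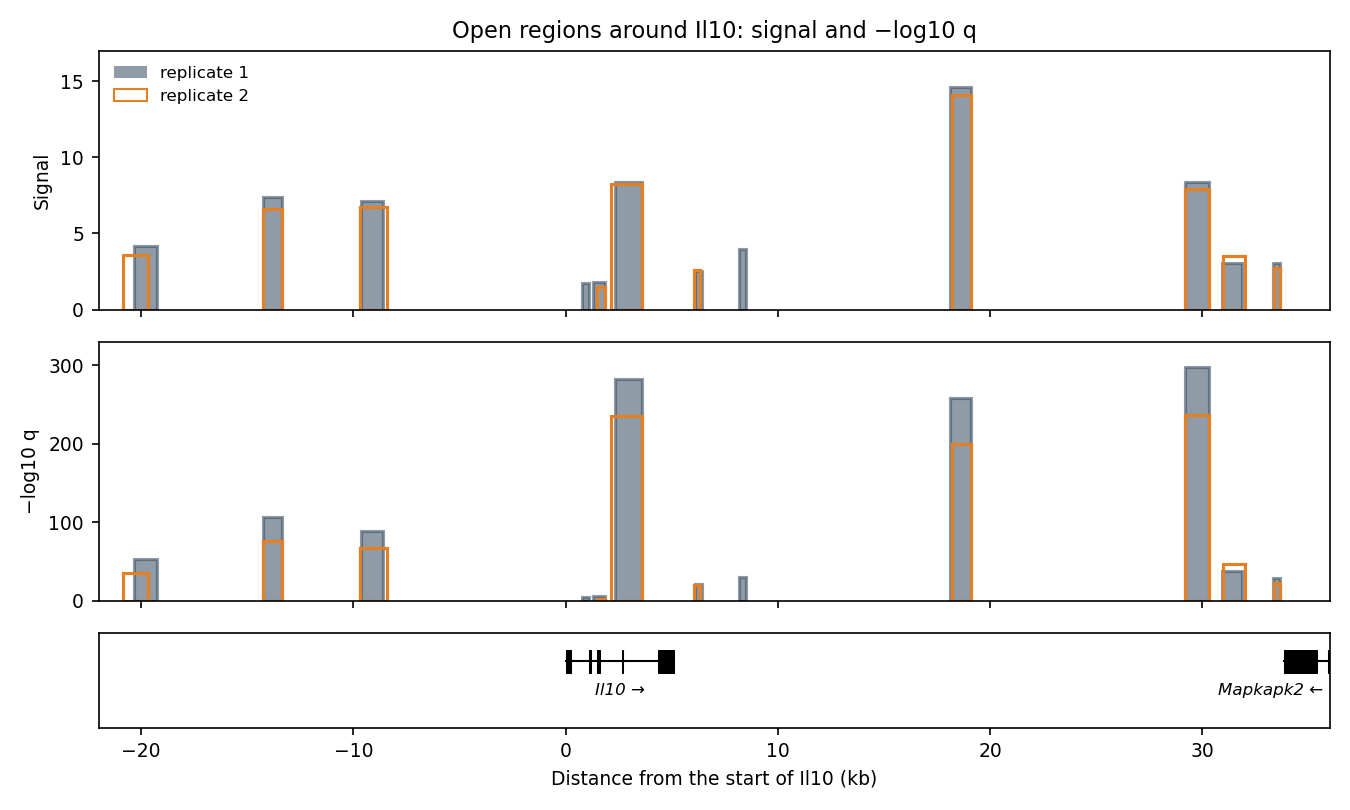
Regions around Il10 by distance from its start in kb, drawn at their own width, with the signal (top), the −log10 q (middle) and the exons (bottom); filled bars are replicate 1 and open bars replicate 2, and where a shared region joins 2 regions of a list the position is that of the one with the higher signal. By signal the region at 18.5 kb is highest (14.6 and 14.1), whereas by −log10 q those at 2.96 kb and 29.6 kb are higher (282 and 236, 297 and 237).

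Mapkapk2 held 8 shared regions in its body, 6 of them distal, and its 44.1 kb body is the longest of the 5 genes. All 6 lay in intron 1 of its longer transcript. The strongest, 7.87 kb from the outer start, had 10.1 and 8.44. It is classed as exonic because it overlaps Gm37084, an unconfirmed transcript on the same strand. The region at 16.9 kb had 9.19 and 8.19, those at 37.4 kb and 33.4 kb had 6.23 and 6.18, and 5.43 and 5.30, and those at 17.9 kb and 12.4 kb had 4.23 and 3.41, and 1.92 and 2.06. Upstream of the gene the highest region, at −13.0 kb, had 6.17 and 6.96. A region of replicate 1 only, inside the gene and near the small nuclear RNA gene Gm25549, had 3.05. The regions inside Mapkapk2 thus ranged from among the weakest of the cluster to 10.1.

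Set side by side, the 6 promoter regions of the windows had a median signal of 4.30 in replicate 1 and 3.85 in replicate 2, below the distal medians. Over all shared regions it was the promoters that were higher, with 9.05 and 8.84. The 3 that belong to Il24 and Mapkapk2 had medians of 7.63 and 7.03, above the distal medians. Of the 6, 3 are these, 2 to Fcmr and 1 to Gm25717, a small noncoding RNA gene. The order within the cluster thus depends on which promoters are counted and on the distance that defines one. The promoter median was 0.650 of the distal median at 1 kb, 1.40 of it at 500 bp and 1.16 of it at 2.5 kb or with coding starts only. No direction is drawn from it.

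**Figure D3:**
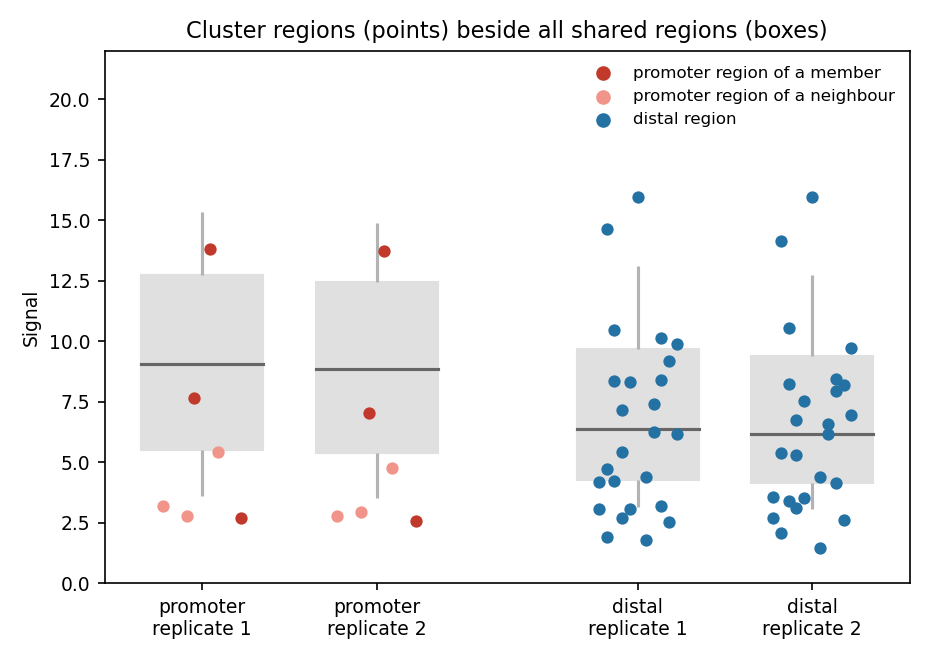
Signal of the 31 shared regions of the cluster (points) in each replicate, split into promoter and distal regions, beside all shared regions of the same class (box from the 25th to the 75th percentile, line at the median, whiskers from the 10th to the 90th). The promoter of Il24, at 13.8 and 13.7, stands above the box, and the distal points spread from 1.47 to 16.0.

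The replicates gave nearly the same values in the cluster. Signal in replicate 2 was 0.976 of that in replicate 1 in the median shared region, as it was over all shared regions (0.978). The ratio ran from 0.806 in intron 1 of Mapkapk2 to 1.30 in the weak region 10.2 kb downstream of the start of Il19. Of the 31 ratios, 1 fell outside the 5th to 95th percentile of all shared regions, 0.757 to 1.26. Summits lay a median of 17 bp apart, against 13 bp over all shared regions, and 29 of 31 within 100 bp. All 7 unshared regions came from replicate 1, 17.9% of the 39 regions counted for it, beside 13.4% of its whole list, which was the longer one. Their signal ran from 1.78 to 3.98, and 10 of the 31 shared regions were weaker in replicate 1 than the highest of them.

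**Figure D4:**
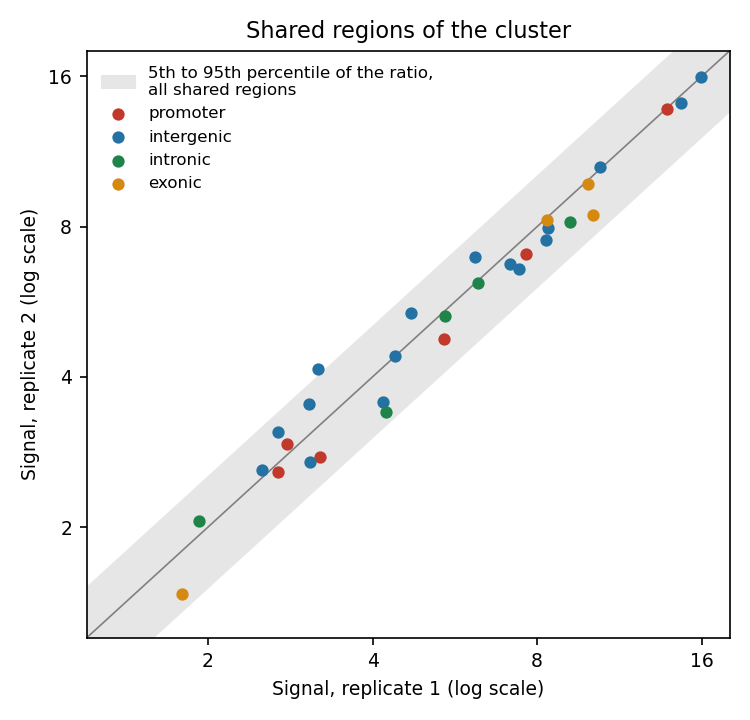
Signal in replicate 2 against signal in replicate 1, both on log scales, for the 31 shared regions, coloured by place; the grey band holds the middle 90% of the ratio over all shared regions and the line marks equal values. The points follow the line over the whole range, and 1 point, at 3.18 and 4.15, lies above the band.

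In the window of Mapkapk2, which like every window adds 20 kb at both ends of the gene, there were 16 shared regions, more than around 96.4% of protein-coding genes. Il10 had 7 (above 69.3%), Il24 had 6 (60.2%), Il20 had 5 (50.2%) and Il19 had 3 (32.4%). The median over coding genes was 4, with an interquartile range of 1 to 7. Counted per length of window, Mapkapk2 stood above 98.2%, Il10 above 93.6%, Il24 above 86.7%, Il20 above 78.3% and Il19 above 47.6%. Neighbouring windows share regions, so these numbers are not independent of each other. In all, the windows covered 216 kb and held 1.44 shared regions per 10 kb, compared with 0.310 over the assembled chromosomes. The second value divides by whole chromosomes, including stretches far from genes, so it is not a value for gene windows. Among single gene windows, the 0.632 per 10 kb of Il19 stood above 47.6% of coding genes. Windows drawn likewise at the Th2 cytokine genes Il4, Il5 and Il13 with Rad50 had 20 shared regions (1.23 per 10 kb), and those at Ifng and Ifngas1 had 21 (1.51 per 10 kb). Whether these densities differ was not tested.

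**Figure D5:**
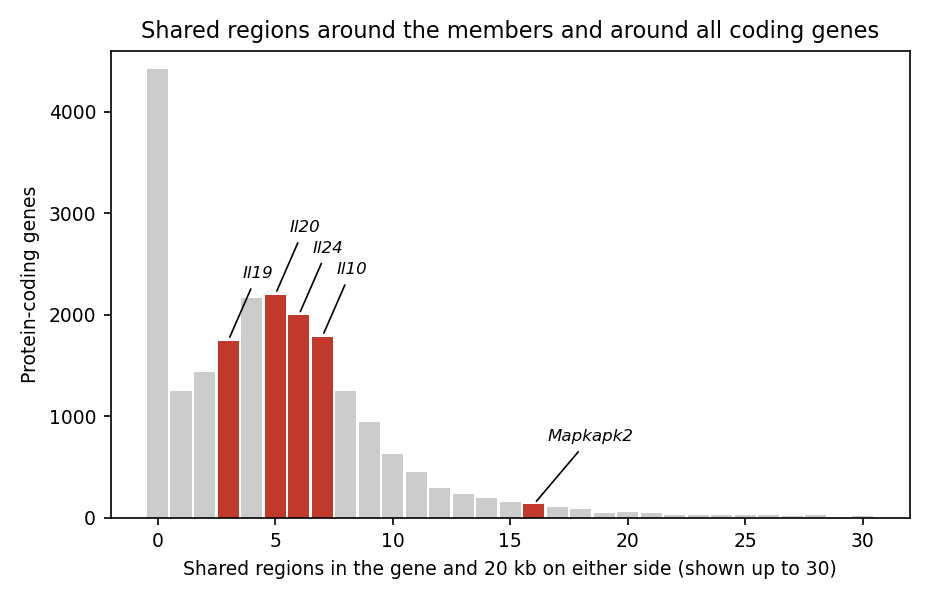
Number of protein-coding genes (bars) by how many shared regions their window (gene body with 20 kb at both ends) holds, shown up to 30; red bars are those in which a named gene falls. Mapkapk2, with 16, stands in the right tail, and the 4 interleukin genes, with 3 to 7, stand in the body of the distribution.

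The 15 motifs were searched on both strands at each summit and in 100 bp on either side of it. The AP-1 letters TGANTCA occurred in 10 of the 31 shared regions, or 32.3%, compared with 26.0% of all shared regions. The RUNX letters TGTGGT occurred in 10 as well, compared with 22.8% of all. Either was present in 16 regions and both in 4. The regions between Il24 and Il20 and downstream of Il10 held AP-1 letters at 2 positions each. For either, both and 2 positions no share over all shared regions is given, so these counts are not read as high or low.

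The Maf letters TGCTGA, bound by a factor that drives Il10 in several T cell types, occurred in 4 regions (12.9%, 18.3% of all). The NFAT letters GGAAAA (13.1% of all), the STAT letters TTCNNNGAA (7.99%) and the GATA letters AGATAA (6.91%) occurred in 3 each. The interferon response letters GAAANNGAA occurred in 2 (8.64% of all), one of them the region in intron 4 of Il10. Single regions held AGGGGGC, part of the CTCF core (6.05% of all), the E-box CACGTG of Bhlhe40 (3.97%), the TATA letters TATAAA (6.68%) and the GC box GGGCGG (14.0%). No window held the T-box letters GGTGTGA (4.62% of all), the ETS letters CCGGAAG (3.58%), the NF-kB letters GGANTTTCC (1.17%) or the CRE letters TGACGTCA (0.725%). Some counts moved with the choice of summit: at the summit of replicate 2, NFAT letters stood in 5 regions, Maf letters in 6 and the E-box in 2. With 50 bp on either side of the summit these were 2, 2 and 0. No motif count, those of AP-1 and RUNX included, is read as above or below its share over all regions. In the promoter sequence of Il19 the first NFAT match overlaps the STAT match, and in that of Mapkapk2 none of the 15 was found in the bases shown. NFAT letters occur in 23.4% of the promoters of the RefSeq table, STAT letters in 8.30%, RUNX letters in 16.8% and interferon response letters in 8.56%.

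A stretch of 39.7 kb between the windows of Il19 and Il10 is not part of the cluster as defined. It held 4 shared regions, at −40.1 kb (12.6 and 11.1), −32.1 kb (9.11 and 8.80), −26.0 kb (9.58 and 8.52) and −23.3 kb (4.92 and 4.99) from the start of Il10. With windows of 50 kb on either side, 17 shared regions lay around Il10.

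Of 43 listed genes that act with the cluster, 39 had open promoters, beside the 65.9% of coding genes. The list was chosen with earlier results of these data known. No excess over other genes is therefore read from this count. All 16 regulators of Il10 were open. Among these Gata3, the Th2 factor, had the highest mean signal (12.7 and 12.0) and Stat4, which carries the interleukin-12 signal, the lowest (4.91 and 4.47). For a gene with several promoter regions the value is the highest in each replicate, and the order was not adjusted for their number. Gata3 had 4 such regions and Stat4 had 1. Maf had 8.60 and 9.02, and Prdm1, which encodes Blimp-1, had 12.1 and 10.6. Of the receptor genes 5 of 7 were open. Il20ra was highest (13.2 and 13.9) and Il10ra, the ligand-binding chain for interleukin-10, lowest (5.46 and 5.24), while Il22ra1 and Il22ra2 had no promoter region.

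All 5 genes listed as acting downstream of the receptors were open. They ran from Stat3, the main factor activated by interleukin-10 (13.4 and 14.5), to Socs3, a feedback inhibitor of cytokine signalling (7.39 and 7.48). All 12 genes of p38 and MK2 signalling were open as well, from Tab1, a p38 activator (16.1 and 15.3), to Zfp36, an RNA-binding target of MK2 (3.90 and 3.91). Of 3 related cytokine genes elsewhere in the genome, Ifnl2 had a promoter region (12.8 and 9.29), and Il22 and Ifnl3 had none. Ifnl2 and Ifnl3 are near-identical copies, so reads between them are hard to place. The listed genes for sensing interleukin-10 and for MK2 signalling were open at their promoters, while the promoters of Il10, Il19 and Il20 had no shared region. As the list was chosen with results known, this contrast is a description only.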

How the data were processed

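Per the labels, ATAC-seq was run on 2 biological replicates of Th1 cells, and each deposited list was derived from the alignments of 1 replicate in build mm10. For the aligner and the caller, the name is not given in the sources used here. Names of the deposited regions include the words ASTARR and insert, which the labels do not explain, so a reporter library's input cannot be told apart from plain ATAC-seq. In the deposited lists column 7 is the signal, an enrichment ratio whose reference is not stated, columns 8 and 9 are −log10 p and −log10 q, and column 5 is a display score capped at 1000. The read depth is not in the lists, so no counting interval is given.

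Regions on chromosomes 1 to 19, X and Y were joined where they overlapped by 1 bp or more, and a joined region took the highest signal and −log10 q of each list. Regions within 1 kb of any GENCODE M21 transcript start were called promoter regions, and the rest were sorted into exonic, then intronic, then intergenic regions. A gene with several shared promoter regions was given the highest signal among them in each replicate. A percentile is the share of values below the one named. Motifs were searched with pysam 0.24.0 in Python 3.11.15, in GRCm38.p6, whose chromosomes no region overran. The functions were tested on simulated data.

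No test was made over regions, which are not replicates. All 5 genes, their neighbours, and from each role of the pathway list the highest, the lowest and every gene without an open promoter were to be named. Maf and Prdm1 were added after their values were seen. The members, gene lists and motifs were chosen with earlier results of these data known. Alternatives covered overlap, flank, promoter distance, transcript class, −log10 q, summit, window length and each replicate alone. For 1 marker gene the result is not reported here.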

Additional observations from a re-analysis of the deposited data

How the results depend on the processing

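The count of 31 shared regions fell to 11 in gene bodies alone and ranged from 31 to 38 with 1 replicate left out. The 2 open promoters, those of Il24 and Mapkapk2, were 2 or 3 in every alternative run, with Il10 as the third at 2.5 kb or with replicate 1 alone. The ratio of promoter to distal median signal, 0.650, became 1.40 at 500 bp, 1.16 at 2.5 kb, 1.16 with coding starts and 0.551 for −log10 q, and ranged from 0.623 to 0.688 with 1 replicate left out. The strongest distal region ranked 2 by −log10 q, behind the region that overlaps the last exon of Fcmr, and 1 with either replicate alone. The median percentile of region number over the 5 genes, 60.2, became 28.8 in gene bodies alone, 54.7 with 50 kb on either side, 86.7 per length of window and 66.8 outside promoters, and ranged from 56.4 to 61.7 with 1 replicate left out. The pathway count was 38 or 39 of 43 throughout. The pairs of a region and a motif, 39, were 31 with 50 bp on either side of the summit and 49 at the summit of replicate 2, and AP-1 and RUNX letters each stood in 9 to 12 regions, NFAT letters in 2 to 5, Maf letters in 2 to 6 and the E-box in 0 to 2. The cause of these shifts was not tested. No paired analysis was possible because the series has 1 group. The unknown depth limits every statement about a missing region: it was not called in that list.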
